A study of Rattus norvegicus with 48 samples.

Results

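The comparison set primary and secondary motor cortex against the CA1 field of the hippocampus in the same adult male Sprague-Dawley rats. Of the 48 arrays of the series, 22 were used here, 11 from motor cortex and 11 from CA1, and 20 of them form 10 pairs in which both areas came from the same pool of animals. Members were chosen by the area in the sample title and paired by stress, lineage and replicate number. Motor cortex NSt-Vin 2 and CA1 St-Con 3 were left out, because their values equal the mean of their group's other arrays. The rats were 120 days old and of the F3 generation, descended from F0 mothers that had been injected with vinclozolin, an antiandrogenic fungicide, at 100 mg/kg/day (Vin) or with the DMSO vehicle (Con) on embryonic days 8 to 14 of gestation. One rat of each lineage shared a cage as a dyad. Of the dyads, groups 1 to 3 went without stress (NSt), while groups 4 to 6 were restrained for 6 hours daily on 21 days, postnatal days 23 to 43 (St). Both areas carried all 4 treatment groups, so the area contrast holds lineage and stress constant within a pair. Tissue was taken as 2 mm punches, and the RNA of 4 animals was pooled for each array.

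Motor cortex is a layered neocortex whose large deep projection neurons send fast-conducting axons to the brainstem and spinal cord, under dense inhibition from fast-spiking parvalbumin interneurons. CA1 holds a single sheet of pyramidal neurons between CA3 input and the subiculum, with strong AMPA-type glutamate signalling and high mineralocorticoid receptor, and the myelinated fibres of the alveus and corpus callosum lie next to it. A punch of bulk tissue mixes all of these cells, and a lower signal from fewer cells of a type and from less RNA per cell cannot be told apart.

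Levels are given as log2 signal relative to the array's own median, so a difference of 1 is 2-fold, and levels of different genes are not compared. Differences are motor cortex minus CA1, as the mean of 10 pairs ± limma's moderated standard error. The fit took the 10 pairs as independent, although control and vinclozolin pools of one dyad group were cage mates. Pair differences within a dyad group had a consensus correlation of 0.283 in limma. The standard errors and p-values of the area difference may therefore be too small. A probe set was called when limma's paired test gave an adjusted p under 0.05. Cortex and amygdala RNA was prepared on one day and CA1 and CA3 RNA on another, and the areas were scanned on different days, so area and day cannot be told apart. Before centring, the array median was 6.78 in motor cortex and 7.13 in CA1 on the log2 scale, a gap of 0.351. As deposited, the median difference of all probe sets was -0.304, against 0.05 after centring and 0.0037 after quantile normalization. A gene that is less than about 0.35 higher in cortex here is therefore lower in cortex on the deposited scale, and all directions below are relative to the array medians. Arrays correlated at 0.989 to 0.997 within motor cortex, 0.975 to 0.997 within CA1 and 0.960 to 0.986 between the areas.

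The areas differed widely by small amounts and strongly at few genes. Of 27342 probe sets, 10641 (38.9%) were called higher in motor cortex and 6321 (23.1%) higher in CA1, and 89.8% of the called probe sets differed by less than 0.5. The share of called probe sets that were higher in cortex was 62.7%, and it was 51.0% after quantile normalization and 4.8% as deposited. At least 2-fold differences were called for 119 probe sets higher in cortex (0.435%) and 116 higher in CA1 (0.424%), of which 85 and 77 carry one gene symbol. On the deposited scale that split was 31 against 388, and after quantile normalization 109 against 126. Of these 235 probe sets, 224 had the same direction in all 10 pairs. Every cortex array lay above every CA1 array for 2821 probe sets (10.3%), and the reverse held for 1738 (6.36%). Counts of called or separated list members below are to be read against these shares, which are printed beside only some of them.

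The genes highest in motor cortex were led by a potassium channel, a fast-release synaptotagmin and a neurofilament. Kcnh5, an ether-a-go-go type potassium channel, was at 1.89 to 2.92 (median 2.67) in the cortex arrays and at -0.62 to 1.14 (median 0.19) in the CA1 arrays. The paired difference of 2.26 ± 0.24 had an adjusted p of 3.26e-06, and single pairs ran from 0.88 to 3.38. Syt2, the calcium sensor of fast transmitter release, was at 1.76 to 2.34 (median 2.09) in cortex and -0.46 to 0.46 (median -0.27) in CA1, a difference of 2.16 ± 0.11. Nefh, the heavy neurofilament chain of large-calibre axons, was at 2.06 to 2.49 (median 2.28) against -0.45 to 0.51 (median 0.22), a difference of 2.13 ± 0.076 (adjusted p = 5.79e-10). For all 3 genes the lowest cortex array stood above the highest CA1 array.

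The other 9 genes highest in cortex had varied roles. Rims3, of the presynaptic active zone, differed by 1.86 ± 0.11, the cadherin Cdh7 by 1.80 ± 0.17, and Rgs4, which speeds the shut-off of G protein signalling, by 1.76 ± 0.23. Cd200r1, the receptor for the CD200 surface protein, differed by 1.75 ± 0.093. Adra1b, the alpha-1B adrenergic receptor, was at -0.04 to 0.57 (median 0.23) in cortex and -1.72 to -1.28 (median -1.47) in CA1, and its difference of 1.72 ± 0.035 had the smallest adjusted p of the named genes (4.62e-12). Scn4b, the beta-4 subunit of fast sodium channels, differed by 1.71 ± 0.060, the neurokinin receptor Tacr3 by 1.65 ± 0.11 and the adaptor Stac2 by 1.61 ± 0.12. Cyp11b1 was also in this group at 1.73 ± 0.17, but it has near-identical paralogs, so which gene its probes read is uncertain. None of these genes overlapped between the areas.

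The genes highest in CA1 were led by a neuropeptide and included a pair of neighbouring ion exchangers. Nts, which encodes neurotensin, was at -2.06 to -1.84 (median -1.94) in cortex and -0.06 to 2.80 (median 1.71) in CA1, a difference of -3.65 ± 0.19 (adjusted p = 6.73e-09), and its lowest CA1 array was NSt-Con 3. Slc9a4 and Slc9a2 encode sodium/proton exchangers and lie side by side on chromosome 9 of the RefSeq assembly GRCr8, at 50320948 to 50375336 and 50427612 to 50510043, with 0 protein-coding genes between them. Slc9a4 was at -1.16 to -1.06 (median -1.08) in cortex and 0.81 to 2.02 (median 1.62) in CA1, a difference of -2.61 ± 0.093. Slc9a2 was at -1.05 to -0.88 (median -0.95) against 0.60 to 1.42 (median 1.00), a difference of -1.90 ± 0.068. Igfbp5, a binding protein of insulin-like growth factors, differed by -2.44 ± 0.070 (adjusted p = 2.22e-10). Both neighbours and Igfbp5 were separated between the areas in every array.

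The other 8 genes highest in CA1 had varied roles. The copine Cpne7, a calcium-dependent membrane-binding protein, differed by -2.08 ± 0.21, and the calcium-binding protein Cabp7 by -2.06 ± 0.18. Dgkg, a diacylglycerol kinase, differed by -1.91 ± 0.16, and Lrrc10b, a leucine-rich repeat protein, by -2.47 ± 0.14. Kit, the receptor of stem cell factor, was at -0.83 to -0.60 (median -0.69) in cortex and 0.38 to 2.34 (median 1.42) in CA1, a difference of -2.01 ± 0.16, whereas its ligand Kitlg was 0.26 ± 0.10 higher in cortex (adjusted p = 0.0417). Gfap, the intermediate filament of astrocytes, was at 0.97 to 2.24 (median 1.32) against 3.15 to 3.71 (median 3.38), a difference of -1.98 ± 0.12. Wfs1, a marker of CA1 pyramidal cells, and Prox1, the homeobox gene of dentate granule cells, completed the 12.

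**Figure D1:**
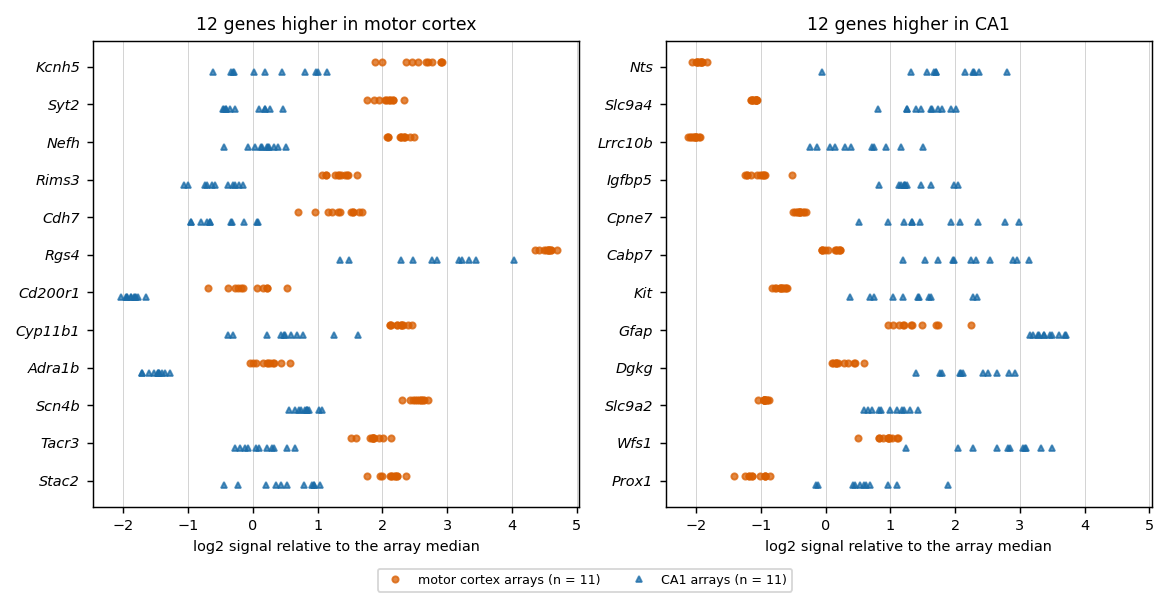
Log2 signal relative to the array median (x axis) in each of the 11 motor cortex arrays (circles) and 11 CA1 arrays (triangles) for the 12 genes with the largest called difference in each direction among those with the same direction in all 10 pairs. For every gene shown the areas do not overlap, and CA1 arrays spread more widely than cortex arrays for several genes, such as Rgs4 and Cpne7.

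Markers of CA1 pyramidal neurons were mostly on the CA1 side. Of 11 measured CA1 pyramidal markers, 8 were called higher in CA1 and 0 higher in cortex, with a median difference of -0.44 against 0.05 over all probe sets. Wfs1 was at 0.50 to 1.11 (median 0.97) in cortex and 1.24 to 3.49 (median 2.84) in CA1, a difference of -1.72 ± 0.19. Nr3c2, Dcn and Fibcd1 differed by -1.67 ± 0.095, -1.31 ± 0.11 and -0.78 ± 0.081, and each was separated in every array. Mpped1 and Pou3f1 did not pass the test, at 0.23 ± 0.14 and 0.08 ± 0.056. Markers of the neighbouring hippocampal fields were also on the CA1 side: 8 of 12 CA3 and CA2 markers were called higher in CA1 and 2 higher in cortex. Among them Cpne4 differed by -2.17 ± 0.41, Bok by -1.10 ± 0.11 and Rgs14, which marks CA2, by -1.06 ± 0.060. Of 11 dentate markers, 6 were called higher in CA1 and 0 higher in cortex, with Prox1 at -1.71 ± 0.18 and C1ql2 at -1.35 ± 0.18.

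Cortical layer markers were more often called higher in cortex than in CA1, a lean that all probe sets share (38.9% against 23.1%). Of 9 measured upper layer markers, 6 were called higher in cortex and 2 in CA1 (median 0.26). Of 16 deep layer markers, 8 were higher in cortex and 2 in CA1 (median 0.11). The deep layer list mean was higher in CA1 in the St-Con 1 and all St-Vin pairs, and in cortex in the other pairs. The upper layer list mean was higher in CA1 in the NSt-Con 1, NSt-Vin 1 and NSt-Vin 3 pairs, and in cortex in the others. Fezf2, which specifies subcortical projection neurons, was at 1.33 to 2.08 (median 1.78) in cortex and 0.28 to 2.03 (median 1.23) in CA1, so the areas overlapped, and the difference was 0.61 ± 0.12 (adjusted p = 7.98e-04). Etv1, a layer 5 marker, differed by 0.41 ± 0.068. Tle4 and Ccn2, of the deepest layers, did not pass the test at 0.02 ± 0.080 and -0.01 ± 0.10. Nr4a2, listed as a deep layer and as an activity-induced gene, was higher in CA1 in 8 of 10 pairs, with a difference of -0.91 ± 0.22. The 20 pallial transcription factors split, with 7 called higher in cortex and 8 in CA1. Pou3f2 (1.36 ± 0.049) and Foxp1 (0.79 ± 0.10) were separated toward cortex in every array. Neurod1 (-1.56 ± 0.092), Nr2f2 (-0.70 ± 0.094) and Neurod6 (-0.54 ± 0.089) were separated toward CA1.

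The CA1 arrays differed among themselves along the same markers, and these differences followed the replicate number. With the treatment group in the model, limma's F test called 1174 probe sets (4.29%) for replicate number among the 11 CA1 arrays and 91 (0.333%) among the 11 motor cortex arrays. Of the 1174, 732 were highest in the arrays numbered 1, 89 in those numbered 2 and 353 in those numbered 3. The labels link a control and a vinclozolin pool of the same number within a stress condition, as cage mates, and link no stressed pool with a non-stressed one. This test was added after the values had been seen.

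The genes with the smallest p-values in that test included channels and receptors of the area comparison. Of the leading genes in either area, only Nefh, Cd200r1, Adra1b, Scn4b, Igfbp5, Gfap and Prox1 were not called in that test. Kcnf1, a modifier subunit of potassium channels, was at 1.62 to 2.56 in the 4 CA1 arrays numbered 1, 1.02 to 2.08 in the 4 numbered 2 and 0.06 to 1.13 in the 3 numbered 3 (adjusted p = 4.73e-05), against 1.97 to 2.57 in motor cortex. Rgs4 was at 3.18 to 4.04, 2.48 to 3.44 and 1.34 to 2.28 in the same order. Kit was at 0.38 to 1.19, 0.74 to 1.62 and 1.42 to 2.34, and the kainate receptor subunit Grik4, a CA3 marker, at 0.48 to 1.37, 0.74 to 1.61 and 1.55 to 2.49 (adjusted p = 1.03e-04). In each of the 3 treatment groups with an array numbered 3, that array was the lowest for Kcnf1 and Rgs4 and the highest for Kit and Grik4. The St-Vin arrays lay above the other arrays of the same number for Kcnf1 and Rgs4 and below them for Kit, and they alone of the CA1 arrays used here were scanned on their day.

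Several marker lists had members called for replicate number. Of 16 deep layer markers, 11 were called for replicate number in CA1, 10 of them highest in number 1 and 0 in number 3. Of 12 CA3 and CA2 markers 4 were called and of 11 dentate markers 3, each highest in number 3. Of 11 CA1 pyramidal markers 7 were called, 6 highest in number 2 and 1 in number 3. Wfs1 was at 2.65 to 3.08, 3.05 to 3.49 and 1.24 to 2.27, and Cpne4 at -0.50 to 2.21, 0.05 to 3.63 and 2.35 to 4.78. The mean of the CA3 and CA2 list ran from 1.00 in St-Vin 1 to 1.94 in NSt-Con 3 over the CA1 arrays, and from 0.78 to 1.00 over the cortex arrays. The oligodendrocyte (21 genes), microglial (14) and endothelial (14) lists had 0 members called for replicate number in CA1. At the 4.29% called over all probe sets, lists of this length would hold few such members, so these counts show no contrast. The sections below remark on replicate number for only some of the genes called for it.

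**Figure D2:**
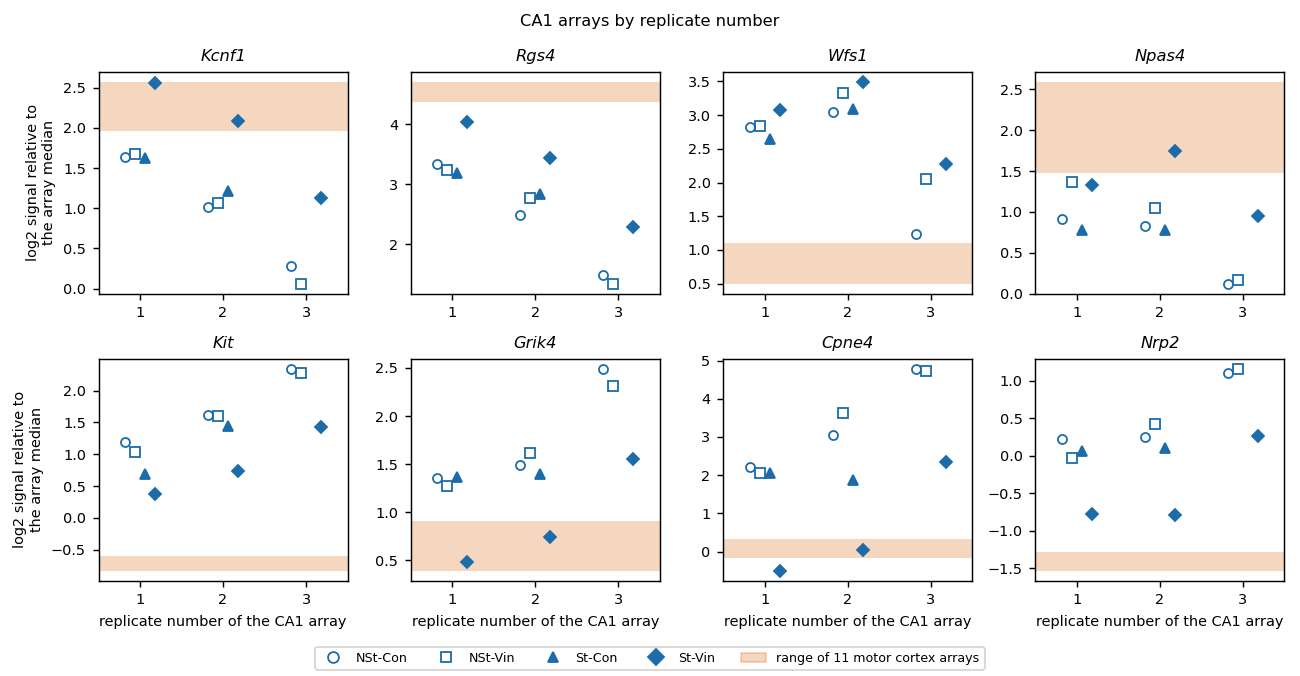
Log2 signal relative to the array median (y axis) in the 11 CA1 arrays, by replicate number (x axis) and treatment group (symbols; filled for stressed), with the range of the 11 motor cortex arrays as a band. Kcnf1, Rgs4, Wfs1 and Npas4 are lowest, and Kit, Grik4, Cpne4 and Nrp2 highest, in the array numbered 3 of each treatment group that has one.

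The area difference was fitted again without pairs that were picked after the pattern by replicate number was seen. Without the 3 pairs numbered 3, 15478 probe sets were called and 179 at least 2-fold. At 2-fold, 76 instead of 119 were higher in cortex and 103 instead of 116 higher in CA1. Rgs4 then differed by 1.32 and Cpne4 by -1.47. Both genes were called for replicate number, so smaller differences without these pairs were built in. Without the 4 pairs whose CA1 arrays lie at the ends of the CA3 and dentate lists (NSt-Con 3, NSt-Vin 3, St-Vin 1 and St-Vin 2), 14144 were called and 211 at 2-fold.

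Oligodendrocyte and microglial genes were mostly higher in CA1. Of 21 oligodendrocyte and myelin genes, 20 were called higher in CA1 and 0 higher in cortex, with a median of -0.55. Enpp6, a marker of newly forming oligodendrocytes, was at -0.91 to -0.06 (median -0.74) in cortex and 0.06 to 1.04 (median 0.48) in CA1, a difference of -1.22 ± 0.070. Opalin and Mobp, of mature myelin, differed by -0.71 ± 0.079 and -0.69 ± 0.047 and overlapped between the areas. Among the cortex arrays St-Vin 1 had the highest list mean, 2.59 against a median of 2.15. Of 9 oligodendrocyte precursor genes, 7 were called higher in CA1, with Pdgfra, the growth factor receptor that defines these cells, at -0.47 ± 0.036. Of 14 microglial genes, 12 were called higher in CA1 and 0 in cortex (median -0.35). The fractalkine receptor Cx3cr1 was at 0.69 to 1.10 (median 0.93) against 1.52 to 1.88 (median 1.60), a difference of -0.69 ± 0.046, and the lysosomal protease Ctss differed by -0.55 ± 0.039. Both were separated in every array.

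Astrocyte genes split by member. Of 22 measured, 9 were called higher in CA1 and 4 in cortex, and the list median was 0.01, which turned to -0.09 after quantile normalization. Gfap, Vim (-1.44 ± 0.26), Lcat (-0.80 ± 0.11) and the water channel Aqp4 (-0.75 ± 0.057) were higher in CA1. Itih3 was higher in cortex by 0.68 ± 0.045 and separated in every array. The glutamate transporter Slc1a2 did not pass the test at 0.03 ± 0.038. Of 14 endothelial and pericyte genes, 6 were called higher in cortex and 1 in CA1 (38.9% and 23.1% over all probe sets). Cldn5, of the tight junctions, was at 0.00 ± 0.047 and not called.

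Choroid plexus RNA varied by array. Ttr, which encodes transthyretin and defines that tissue, ran from -2.55 to 8.25 in cortex and from 0.25 to 8.44 in CA1, with NSt-Con 1 the highest cortex array and NSt-Con 3 the highest CA1 array. Its difference was -2.26 ± 0.93 (adjusted p = 0.0474), with 8 of 10 pairs lower in cortex. Of 15 choroid genes, 4 were called higher in CA1, near the 23.1% over all probe sets. Htr2c, a serotonin receptor abundant in choroid plexus, ran from 1.38 to 4.35 in CA1 and -0.12 to 3.71 in cortex. Without the 3 NSt-Con pairs, 15472 probe sets were called and 197 at 2-fold, Ttr differed by -2.63 and Htr2c by -1.45. Leptomeningeal genes had 1 of 15 called higher in cortex and 2 in CA1, and their list mean was highest in cortex St-Vin 3 and in CA1 NSt-Con 3, at 0.53 in each. The part of choroid plexus and leptomeninges in the area differences of other genes was not tested.

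**Figure D3:**
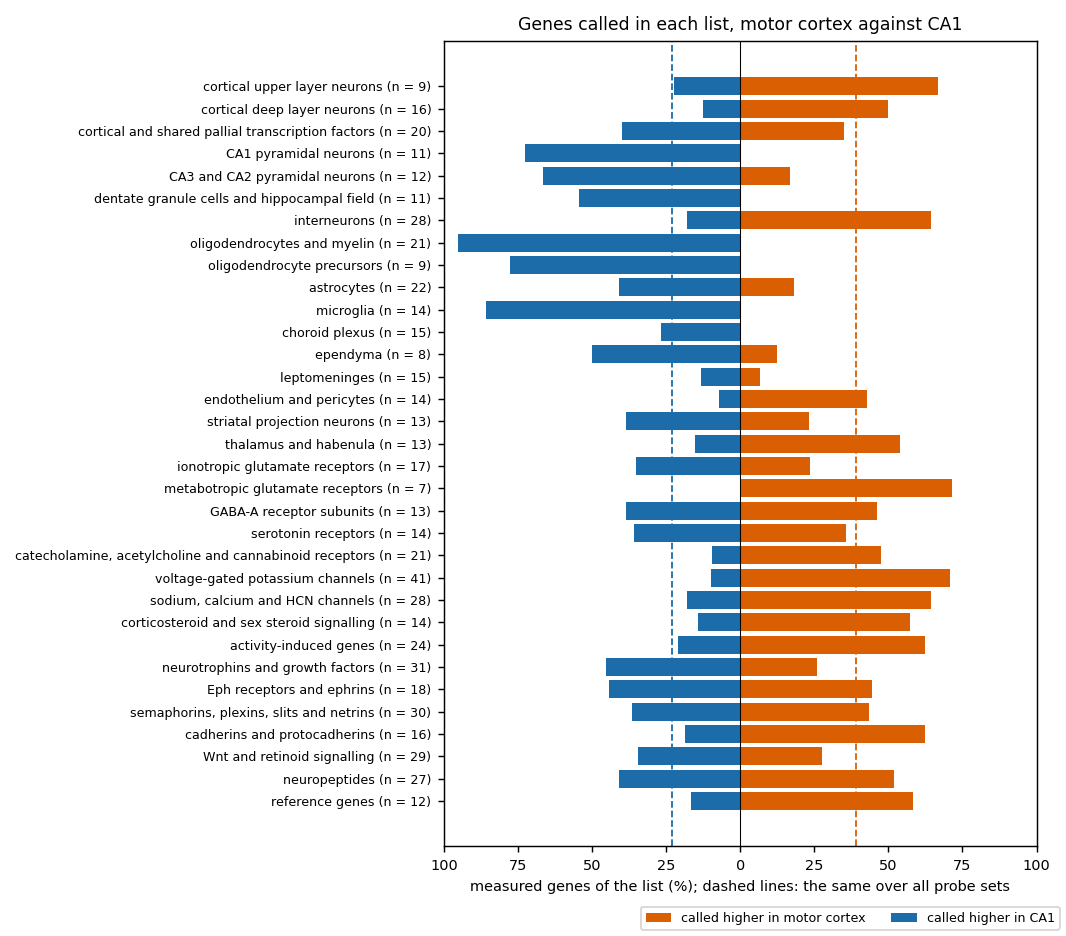
Share of the measured genes of each list (x axis, %) called higher in motor cortex (right) or higher in CA1 (left), relative to array medians; n is the number of measured genes, and dashed lines mark 38.9% and 23.1%, the same shares over all probe sets. Myelin, microglial and hippocampal lists extend to the left, and potassium channels, interneurons and activity-induced genes to the right.

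Interneuron genes were mostly higher in motor cortex. Of 28 measured, 18 were called higher in cortex and 5 in CA1, with a median of 0.21 (0.15 after quantile normalization). Pvalb, the calcium buffer of fast-spiking cells, was at 2.98 to 3.30 (median 3.23) in cortex and 1.67 to 2.57 (median 2.26) in CA1, a difference of 0.93 ± 0.091 (adjusted p = 1.59e-06). The Kv3 channels of the same cells followed, Kcnc2 at 0.73 ± 0.094 and Kcnc1 at 0.61 ± 0.049. All 3 were separated in every array. The neuropeptides Npy and Cck differed by 0.48 ± 0.13 and 0.47 ± 0.090 and overlapped. Adarb2 (-0.54 ± 0.068), the calretinin gene Calb2 (-0.47 ± 0.061) and the nitric oxide synthase Nos1 (-0.27 ± 0.034) were separated toward CA1. Of the 28, 9 were called for replicate number among the CA1 arrays (4.29% over all probe sets). Of these 9, 8 were highest in number 1, as were 732 of the 1174 called over all probe sets.

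Potassium channels carried the largest cortex share of the function lists with more than 10 members. Of 41 measured, 29 were called higher in cortex and 4 in CA1 (38.9% and 23.1% over all probe sets). The median was 0.27 (0.21 after quantile normalization). Of the 41, 13 were separated toward cortex in every array (10.3% over all probe sets). After Kcnh5 came Kcnab3, an auxiliary beta subunit, at 1.08 ± 0.080, Kcns3, a silent subunit, at 1.00 ± 0.041, Kcnh7, of the same family as Kcnh5, at 0.99 ± 0.21, and the axonal channel Kcna2 at 0.94 ± 0.062. Of the 41 channels, 12 were called for replicate number among the CA1 arrays (4.29% over all probe sets), 10 of them highest in number 1. Kcns3 was at 0.83 to 1.19 (median 0.99) in cortex and -0.15 to 0.16 (median 0.03) in CA1. Kcnip2, a partner of A-type channels, was higher in CA1 in 8 of 10 pairs, with a difference of -0.34 ± 0.11. Of 28 sodium, calcium and HCN channel genes, 18 were called higher in cortex and 5 in CA1 (median 0.26). Scn1a, the sodium channel of fast-spiking axons, was at 3.39 to 3.78 (median 3.60) against 2.19 to 2.91 (median 2.37), a difference of 1.11 ± 0.10, and the calcium channel subunit Cacnb4 differed by 1.17 ± 0.14. Within the sodium channel beta subunits the direction was opposite: Scn4b was higher in cortex, and Scn3b, at 2.08 to 2.77 (median 2.37) in cortex and 3.42 to 4.08 (median 3.79) in CA1, differed by -1.26 ± 0.10. The T-type calcium channel Cacna1h (-0.64 ± 0.070) and the AMPA receptor partner Cacng8 (-0.55 ± 0.088) were also higher in CA1.

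Glutamate receptors divided by subunit. Of 17 ionotropic genes, 4 were called higher in cortex and 6 in CA1. Among AMPA subunits, Gria1 was at 3.48 to 3.85 (median 3.69) in cortex and 3.95 to 4.89 (median 4.53) in CA1, a difference of -0.70 ± 0.090, and Gria3 went the other way at 0.50 ± 0.077, both separated in every array. Gria4 differed by 0.45 ± 0.10, and Gria2 did not pass the test at 0.05 ± 0.031. The obligatory NMDA subunit Grin1 differed by 0.37 ± 0.041 and Grin2c by -0.48 ± 0.058. Grin2a and Grin2b did not pass the test, at -0.04 ± 0.058 and -0.11 ± 0.050. Kainate subunits were opposite as well, with Grik3 at 0.62 ± 0.17 and Grik4 at -0.81 ± 0.19. Of the 17 ionotropic genes, 4 were also called for replicate number in CA1 (4.29% over all probe sets), namely Grik3, Grik4, Gria1 and Gria4. Of 7 metabotropic receptors, 5 were called higher in cortex and 0 in CA1. Grm8 differed by 1.38 ± 0.17, Grm2 by 0.82 ± 0.058 and Grm4 by 0.67 ± 0.039, receptors that lower transmitter release. Grm8 was also called for replicate number in CA1.

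GABA-A subunits divided in a similar manner, with 6 of 13 called higher in cortex and 5 in CA1 (38.9% and 23.1% over all probe sets). Gabrd, the delta subunit of extrasynaptic tonic inhibition, was at 0.85 to 1.16 (median 1.03) in cortex and -0.79 to 0.02 (median -0.26) in CA1, a difference of 1.29 ± 0.081 (adjusted p = 3.06e-08). Gabra3 and Gabrb2 differed by 0.92 ± 0.17 and 0.90 ± 0.11. Gabra5, the alpha-5 subunit known for its hippocampal enrichment, was at 2.24 to 2.97 (median 2.61) against 2.91 to 3.72 (median 3.54), a difference of -0.78 ± 0.12, and Gabra2 differed by -0.47 ± 0.12. For replicate number in CA1, 4 of the 13 were called (4.29% over all probe sets), with Gabra3, Gabrb2 and Gabra2 among them.

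Serotonin receptors were called in both directions, 5 of 14 each way. Htr2a, the receptor of cortical pyramidal cells, was at 2.06 to 2.48 (median 2.25) in cortex and 0.35 to 1.71 (median 1.15) in CA1, a difference of 1.16 ± 0.12, and Htr1f differed by 0.85 ± 0.041. Htr5b was at -1.06 to -0.70 (median -0.81) against 0.10 to 1.17 (median 0.56), a difference of -1.33 ± 0.10, and Htr1a, the inhibitory receptor, differed by -0.65 ± 0.11. Htr2a and Htr1f were separated toward cortex, and Htr5b and Htr1a toward CA1. For replicate number in CA1, 6 of the 14 were called (4.29% over all probe sets), with Htr2a and Htr5b among them. Of 21 catecholamine, acetylcholine and cannabinoid receptors, 10 were called higher in cortex and 2 in CA1. Besides Adra1b, the muscarinic receptor Chrm2 differed by 1.38 ± 0.10, the nicotinic subunit Chrna4 by 1.15 ± 0.11 and the beta-1 adrenergic receptor Adrb1 by 0.96 ± 0.040. Drd5 (-0.48 ± 0.044) and Chrm5 (-0.50 ± 0.061) were the 2 higher in CA1. The cannabinoid receptor Cnr1 did not pass the test at 0.02 ± 0.095.

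**Figure D4:**
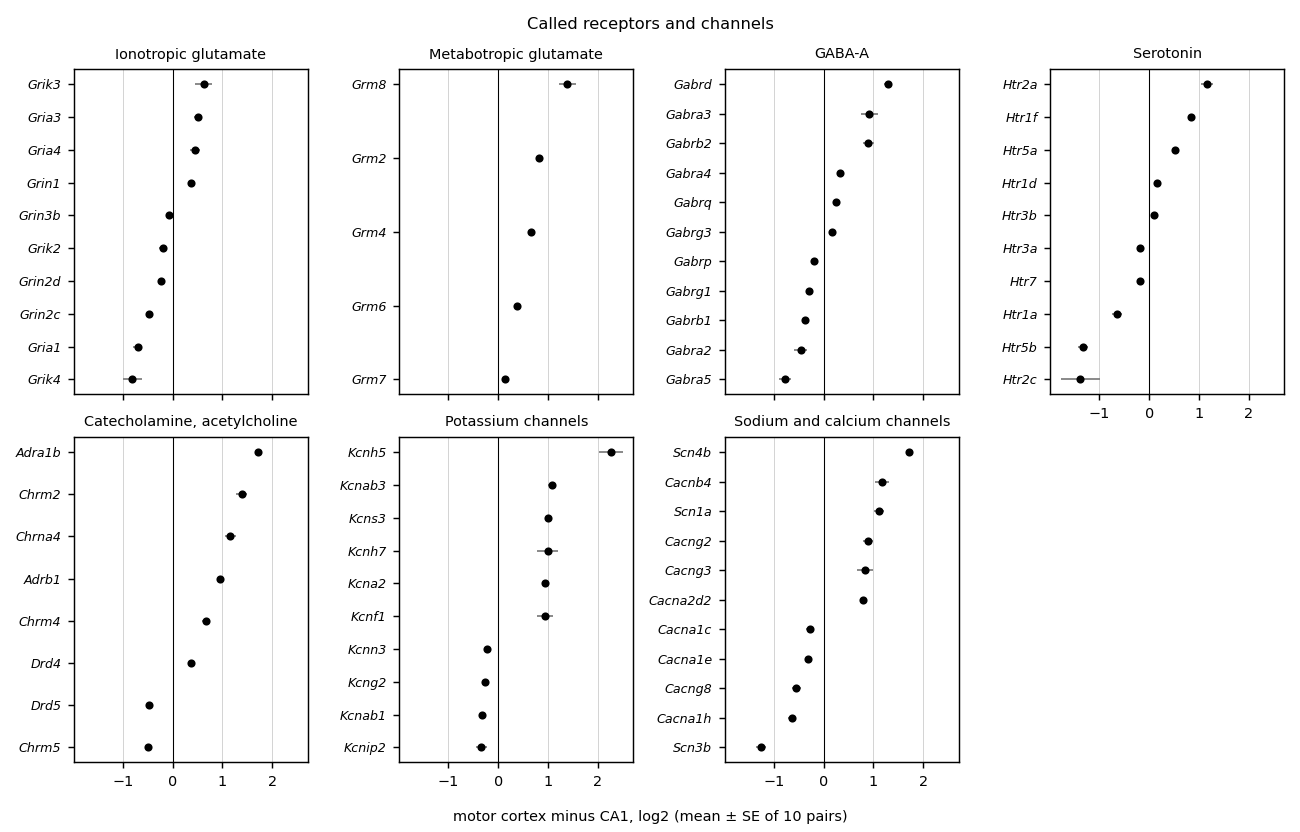
Motor cortex minus CA1 on the log2 scale (x axis) for called receptor and channel genes, up to 6 in each direction for each list, relative to array medians. Points are means of 10 pairs and bars limma's moderated SE. Scn4b and Scn3b, Gria3 and Gria1, Gabrd and Gabra5, and Htr2a and Htr5b lie on opposite sides of 0 within their lists.

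Steroid receptors differed most at the mineralocorticoid receptor. This receptor binds corticosterone tightly, and the glucocorticoid receptor binds it at stress levels. Nr3c2, the mineralocorticoid receptor, was at 0.26 to 0.52 (median 0.44) in cortex and 1.55 to 2.59 (median 2.20) in CA1, and the difference of -1.67 ± 0.095 had an adjusted p of 1.38e-08. Nr3c1, the glucocorticoid receptor, was 0.28 ± 0.078 higher in cortex (adjusted p = 0.00624) in 8 of 10 pairs with overlapping areas, and it is lower in cortex on the deposited scale. The corticosteroid-induced kinase Sgk1 differed by -0.49 ± 0.045, and the chaperone Fkbp5 did not pass the test at -0.24 ± 0.12 (adjusted p = 0.0867). Esrrg, an oestrogen-related orphan receptor, differed by 1.16 ± 0.082 and the progesterone receptor Pgr by 0.74 ± 0.083, both separated toward cortex. The oestrogen receptor Esr1 did not pass the test at -0.02 ± 0.028. Crh, the stress peptide, was 0.47 ± 0.039 higher in cortex and separated in every array. Of the 14 measured genes of the list, 8 were called higher in cortex and 2 in CA1.

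Activity-induced genes were mostly higher in motor cortex. These genes are transcribed within minutes of neuronal firing, many through the cyclic AMP response element. Of 24 measured, 15 were called higher in cortex and 5 in CA1, 5 of them at least 2-fold higher in cortex, with a median of 0.38 (0.36 after quantile normalization). Fos was at 0.00 to 0.91 (median 0.55) in cortex and -0.99 to -0.20 (median -0.71) in CA1, a difference of 1.20 ± 0.11 (adjusted p = 6.23e-07). Arc, which acts at active synapses, was at 2.79 to 3.37 (median 3.10) against 0.70 to 2.58 (median 1.87), a difference of 1.31 ± 0.18. Dusp1, Nr4a1, Npas4 and Egr1 differed by 1.22 ± 0.20, 1.17 ± 0.18, 1.16 ± 0.14 and 0.91 ± 0.20, each higher in cortex in all 10 pairs. Fos and Arc were separated in every array, and these last 4 overlapped.

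Part of this list also varied with replicate number inside CA1. Of the 24, 10 were called for it (4.29% over all probe sets). Of these 10, 7 were highest in number 1, a lean near that of all called probe sets (732 of 1174). Npas4 was at 0.78 to 1.37, 0.78 to 1.74 and 0.12 to 0.95 in CA1 arrays numbered 1, 2 and 3. Without the 3 pairs numbered 3, Npas4 differed by 0.88, Dusp1 by 0.90 and Egr1 by 0.50. These pairs were picked after the pattern was seen, so smaller differences were built in. The part of the replicate-number variation in the area difference was not tested beyond these values. Klf4 and Nr4a2 were higher in CA1, at -0.64 ± 0.043 and -0.91 ± 0.22, and another Klf4 probe set had the opposite sign. Bdnf, the neurotrophin, did not pass the test at -0.12 ± 0.064, nor did its receptor Ntrk2 at 0.01 ± 0.054.

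Promoter sequences are shown for 3 of these genes, because they hold the element named above. RefSeq promoters of GRCr8, windows of one length around the gene's start, were matched for 18 of the 24 genes. The motif TGACGTCA, a palindrome that reads alike on both strands, lies in 4 of the 18 (22.2%) and in 4 of the 12 called higher in cortex (33.3%), against 525 of 27457 RefSeq promoters (1.91%), with no matching for base composition. The 150 bases before the start are given 5′ to 3′ on the gene's strand, with the motif in capitals. The Dusp1 stretch lies at chr10:17184703-17184852 (plus strand), Ier2 at chr19:40399223-40399372 (plus strand) and Vgf at chr12:25277021-25277170 (minus strand).
Dusp1: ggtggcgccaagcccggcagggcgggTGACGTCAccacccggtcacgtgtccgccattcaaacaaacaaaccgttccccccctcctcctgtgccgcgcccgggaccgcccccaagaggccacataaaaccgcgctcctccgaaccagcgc
Ier2: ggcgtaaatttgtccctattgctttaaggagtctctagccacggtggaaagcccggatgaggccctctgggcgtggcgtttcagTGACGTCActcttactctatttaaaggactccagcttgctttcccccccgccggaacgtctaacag
Vgf: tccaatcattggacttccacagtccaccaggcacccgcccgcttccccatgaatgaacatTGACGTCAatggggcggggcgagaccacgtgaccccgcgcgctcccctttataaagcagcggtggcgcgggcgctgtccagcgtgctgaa

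The motif starts 124 bases before the start of Dusp1, 66 before Ier2 and 90 before Vgf. Dusp1, Ier2 and Vgf differed by 1.22 ± 0.20, 0.41 ± 0.046 and 0.46 ± 0.084. Ier2 was chosen after its value was seen, for its motif. Jund holds the motif 221 bases before its start and differed by 0.34 ± 0.045. A match of letters is a description of the window, not a binding site.

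Growth factor genes were more often higher in CA1. Of 31 measured, 14 were called higher in CA1 and 8 in cortex (median -0.09). Besides Igfbp5, the receptors Fgfr1 (-0.96 ± 0.14) and Gfra1 (-0.88 ± 0.076) and the ligand Fgf2 (-0.67 ± 0.063) were separated toward CA1. Gfra2, the neurturin receptor, was separated toward cortex at 1.11 ± 0.10, so the GDNF-family co-receptors Gfra1 and Gfra2 lay on opposite sides. Igfbp6 was at 0.34 to 2.04 (median 1.18) in cortex and -0.46 to 0.29 (median 0.03) in CA1, a difference of 1.19 ± 0.16, opposite to Igfbp5.

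Guidance genes were called in both directions. Of 30 semaphorin, plexin, slit and netrin genes, 13 were called higher in cortex and 11 in CA1 (38.9% and 23.1% over all probe sets). Sema3a, a repellent of axons, was at 1.92 to 2.33 (median 2.08) in cortex and -1.0 to 1.69 (median 0.46) in CA1, a difference of 1.61 ± 0.24, and Sema3d differed by 1.26 ± 0.095. The neuropilins that bind class 3 semaphorins were higher in CA1, with Nrp2 at -1.52 ± 0.16 and Nrp1 at -0.72 ± 0.12. Sema3a and Nrp2 were both called for replicate number in CA1. Of 18 Eph receptors and ephrins, 8 were called each way. Efna5 (1.60 ± 0.12) and Efnb2 (0.97 ± 0.12) were separated toward cortex, and Efnb3 (-1.15 ± 0.075) and Epha7 (-0.95 ± 0.11) toward CA1. Of 16 cadherins, 10 were called higher in cortex and 3 in CA1, with Cdh7 and Cdh20 (0.82 ± 0.059) separated toward cortex. Of 29 Wnt and retinoid genes, 8 were called higher in cortex and 10 in CA1, with Wnt4 at -1.07 ± 0.066 and the retinoid receptor Rxrg at -0.62 ± 0.066.

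Neuropeptides were called in both directions, 14 of 27 higher in cortex and 11 in CA1. Adcyap1, which encodes PACAP, was at 0.92 to 1.47 (median 1.24) in cortex and -1.19 to 0.73 (median 0.16) in CA1, a difference of 1.24 ± 0.17. Penk, the enkephalin precursor, differed by 0.73 ± 0.073. Nppa (-0.80 ± 0.044) and the secretogranin Scg2 (-0.60 ± 0.11) were higher in CA1 beside Nts. Of 12 measured reference genes, 7 were called higher in cortex and 2 in CA1 (38.9% and 23.1% over all probe sets). Their median of 0.18 turned to -0.01 after quantile normalization. No array was normalized to these genes here.

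The amygdala and CA3 arrays of the same pools put the difference against a second pair of areas with the same preparation days. The difference of differences, motor cortex minus CA1 less amygdala minus CA3, takes out a shift shared by the areas of one preparation day, but not the scan days. It was called for 18429 probe sets (67.4%), of which 65.5% were positive (50.7% after quantile normalization and 52.2% as deposited). Of the 235 probe sets at least 2-fold between motor cortex and CA1, 165 were called with the same sign. The motor cortex minus CA1 difference that picked these 235 is a part of this value. Calls with the same sign are therefore partly built in. Nefh had the highest value, 3.16 ± 0.077, with medians of 2.28 in cortex, 0.22 in CA1, -0.52 in amygdala and 0.53 in CA3. Kcns3 (2.56 ± 0.052), the Wnt co-activator Rspo3 (2.34 ± 0.10) and Hebp2 (2.03 ± 0.14) followed the same pattern of low amygdala signal. Igfbp5 was at -2.08 ± 0.10, with medians of -1.01 in cortex, 1.23 in CA1, 0.72 in amygdala and 1.04 in CA3. Adora2a, the adenosine receptor of striatal neurons, had -2.62 ± 0.40 with no called difference between motor cortex and CA1 (-0.02 ± 0.059), and its amygdala median was 2.29. For Prox1 the value was positive, 0.79 ± 0.30, with medians of 0.59 in CA1 and 1.74 in CA3. Wfs1 was as high in the CA3 arrays (median 2.94) as in CA1 (median 2.84), so this CA1 marker did not tell these arrays apart by its median.

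**Figure D5:**
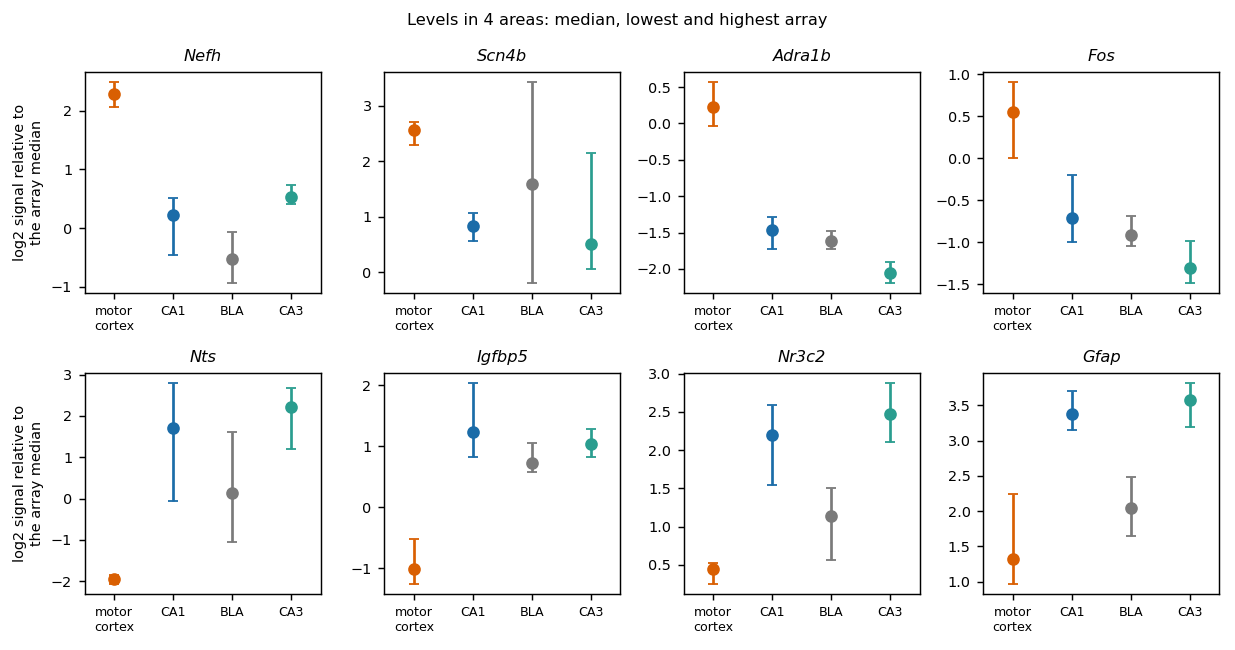
Log2 signal relative to the array median (y axis) in 4 areas (x axis; BLA, basolateral amygdala): points are medians and bars run from the lowest to the highest array. Nefh, Scn4b, Adra1b and Fos are highest in motor cortex by their medians, and Nts, Igfbp5, Nr3c2 and Gfap are lowest there.

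The area difference was called as differing by stress or by lineage at few probe sets. The difference between stressed and non-stressed pools was called for 5 probe sets (0.0183%), 3 of them with one symbol. Of the 27342, 4687 had an unadjusted p under 0.05, more than this threshold passes with no difference. The low number of calls therefore does not show that the area difference was alike with and without stress. Rxfp1, the relaxin receptor, was at 0.03 to 0.41 in the 6 non-stressed and 0.55 to 1.25 in the 5 stressed CA1 arrays, and at 1.46 to 1.90 and 1.27 to 1.81 in the 5 and 6 cortex arrays. The cortex-CA1 difference was lower under stress, with a term of -0.75 ± 0.073 (adjusted p = 0.0276). Igfbp6 was at 1.11 to 2.04 in non-stressed and 0.34 to 1.30 in stressed cortex, and at -0.46 to 0.21 and 0.03 to 0.29 in CA1, with a term of -0.90 ± 0.10 (adjusted p = 0.0315). For Fam133b the term was -0.57 ± 0.069 (adjusted p = 0.0439), with another probe set of this gene not called. For Rxfp1 the non-stressed and stressed CA1 arrays did not overlap, and the cortex arrays did. Leaving out one pair gave 0 to 9 called probe sets, and 0 were called with the dyad group as a block. All stressed cortex arrays were scanned on the second day, together with NSt-Vin 3, and CA1 St-Vin arrays on a day of their own. Stress and scan day therefore largely coincide, except at cortex NSt-Vin 3 and at CA1 St-Con 1 and 2, scanned with the non-stressed CA1 arrays. In the NSt-Vin 3, St-Con 1 and St-Con 2 pairs Rxfp1 differed by 1.46, 0.79 and 1.07, and Igfbp6 by 1.41, 1.03 and 1.04. In the other pairs stress and scan day cannot be told apart. The part of scan day in these terms was not tested.

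The lineage term was called for 1 probe set (0.00366%), which carries no symbol, with 1050 at an unadjusted p under 0.05. Its nearest named gene was Igfbp6 at -0.58 ± 0.10 (adjusted p = 0.568). The interaction of stress and lineage was called for 0 probe sets (0.0%), with 1195 at an unadjusted p under 0.05, and with 0 called under each alternative run. A p that misses the threshold does not show that the areas respond alike.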

How the data were processed

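RNA of 4 pooled animals per array was measured on rat expression microarrays, and the deposited values are log2 signals that the authors made with Partek and RMA per the submitters' processing notes, with no version given in the sources used. Scanner files and detection calls were not used. Each array was centred on its median. Of 27342 probe sets, 15097 carry 1 gene symbol, 323 several and 11922 none in the platform annotation. 15067 matched the RefSeq table of GRCr8, and 319 have values identical to another probe set.

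The area difference was fitted with limma 3.58.1 (R 4.3.3, statmod 1.5.0) over 20 arrays with the pool as a block, two-sided, with Benjamini-Hochberg adjustment over all probe sets. The pairing comes from the labels, which state that each replicate of all areas was pooled from the same animals. Deviations of paired arrays correlated at -0.09 to 0.282 (median 0.156), over 0.1 in 6 of 10 pairs. Stress and lineage were tested on the 10 pair differences, and the amygdala and CA3 arrays entered as a difference of differences. Scripts were tested on simulated data. The number of arrays limits the precision.

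Of the 2 arrays left out, 100% of values equal the mean of their group's other arrays within 0.0051, against at most 6.82% in any other array. A symbol with several probe sets is given by the one with the highest mean, but a leading gene of a term by the probe set picked for that term. Named genes are the 12 highest and 12 lowest called differences with one direction in all 10 pairs, up to 6 called members per direction of each list, members not called, a few fixed genes, and the leading genes of each term. The members, lists and tests were chosen with earlier results of these data known. Alternatives were unpaired arrays, deposited and quantile scales, a filter above the 30th percentile, all 24 arrays, other eBayes settings, single pairs left out and single scan-day combinations.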

Additional observations from a re-analysis of the deposited data

Results flagged for a closer look

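In 5 of 148 named genes, one of the 10 pair differences (motor cortex minus CA1, log2) lay apart from the other 9 by Dixon's criterion, which chance meets in about 1 of 20 groups. Nefh was at 2.79 in the St-Vin 2 pair and at 1.85 to 2.25 in the others. Nts was at -1.88 in the NSt-Con 3 pair and at -4.26 to -3.29 in the others. Vim was at 0.895 in the St-Vin 3 pair and at -2.63 to -0.92 in the others. The NSt-Con 3 pair was also apart for Grin2a, at 0.43 against -0.28 to 0.07, and for Ntrk2, at 0.47 against -0.18 to 0.11. The CA1 array of NSt-Con 3 had the highest choroid plexus, ependymal, and CA3 and CA2 list means of the CA1 arrays, and their part in these values was not tested.

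The area difference itself differed between stressed and non-stressed pools for 5 probe sets by limma's test. The stressed minus non-stressed term was -0.8967 for Igfbp6, -0.7533 for Rxfp1 and -0.5675 for Fam133b, and 0.9275 and 1.1067 for the unnamed probe sets 10787803 and 10932699. Between lineages it differed for the unnamed probe set 10791818, at -0.9408 in vinclozolin against control pools.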

How the results depend on the processing

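The count of 16962 called probe sets stayed within 1.5 times under most alternatives, and was 17060 in the unpaired fit with no replicate block and 15949 to 16788 with one pair left out. It was 7994 in the 3 pairs with cortex scan day 2 and CA1 scan day 4, a fit of fewer samples. The 235 probe sets at 2-fold became 419 on the deposited scale and 155 in those 3 pairs, and ran from 210 to 268 with one pair left out. In those 3 pairs Npy (-0.025), Grik3 (-0.0517) and Gabra2 (0.0317) also turned sign. Another 21 named genes lost their call there, and 122 of the 148 stayed the same. The cause was not tested. Under all alternatives, 112 of the 148 named genes stayed the same, and 26 lost their call in at least one. On the deposited scale, 4 of the 133 called named genes (Kitlg, Nr3c1, Jund and Fam133b) and 8 of the 15 not called turned sign, as the array medians differ. Fam133b is given here by its probe set of highest mean (0.2975 after centring). Its stress term was read on another probe set, with an area difference of 0.5305. On the deposited scale single genes were compared by direction relative to the median of all probe sets, with no test of their own. The 5 probe sets of the stress term became 0 with the dyad group as a random replicate block, 3 after quantile normalization, 2 with trend and robust settings, 1603 with all 24 arrays, where 2 arrays are means of others, and 0 to 9 with one pair left out. The 1 probe set of the lineage term became 3 with the dyad block, 0 on the deposited scale, 0 with the filter and 0 with all 24 arrays, and was 0 to 1 with one pair left out. The interaction stayed at 0 (0 to 0 with one pair left out). The difference of differences ran from 17659 to 18223 with one pool left out and was 18608 with no replicate block. Leaving out the 4 pairs at the ends of the CA3 and dentate lists, or the 3 pairs numbered 3, was chosen after seeing the data.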
